A study of Mus musculus with 6 samples.

Results

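Genes that mark mesothelium and its cardiac form, the epicardium, were followed through aortic valve RNA of 4-month-old mice. The list was fixed by gene symbol and names 10 genes, of which 9 are described here from the 23107 genes counted (Wt1, Upk3b, Upk1b, Msln, Krt8, Krt18, Krt19, Lrrn4 and Tbx18), and Muc16 was not analysed here. The aortic valves came from outbred mice, in 3 control and 3 mutant libraries. The labels give the controls as wild type, whereas the study's methods allow controls that carried the caAcvr1 transgene alone, the Nfatc1Cre allele alone or neither, and do not say which were sequenced. The mutants (labelled Acvr1:Nfatc1Cre) carried both, so that a constitutively active Acvr1 receptor, a type I receptor for bone morphogenetic proteins, was switched on by a Cre recombinase placed in the Nfatc1 gene. According to the study this Cre acts in the endocardium, in its derivatives and at the leaflet-wall junction, and not in the myocardium or smooth muscle. Neither the sex of the sequenced mice nor any pooling of valves is stated, so that p-values measure the spread between these libraries, which may be technical in part.

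A mesothelium is a single layer of flattened cells that lines the body cavities and keeps epithelial features such as keratin filaments. The epicardium is the mesothelial cover of the heart, and within the pericardial sac it reaches onto the root of the aorta. The valve leaflets themselves are covered by endothelium and filled with interstitial cells. Each library was made from whole valve tissue, in which a larger number of mesothelial cells and more RNA per mesothelial cell cannot be told apart.

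The libraries held 32218345 to 55728852 counted fragments. Levels are given in CPM, counts scaled to a common library total with the TMM method, and the values of a group are always listed in the order of replicates 1, 2 and 3. Beside the valve label, 12 genes of interstitial and endothelial cells were read, including Dcn, which encodes decorin, Pecam1 and Nfatc1. These were present in every library, and their summed level ran from 13440 to 17317 CPM, a 1.29-fold range. Single genes could range more widely, such as Vwf from 246 to 563 CPM. Most of the 12 are not particular to valves, so that they cannot show how much of a library was valve. The cardiac muscle genes described below summed to 45884 CPM in mutant replicate 1, against 13440 CPM for the 12 genes. In control replicate 2 the sums were 13643 and 15341 CPM. Control replicate 2 stood apart from the other libraries. It held the highest value of 24.4% of the 15354 genes tested and the lowest value of 24.9%, against 11.0% to 19.5% and 11.2% to 20.1% in the other 5 libraries. For the 9 genes the ranges, the common profile, the median spread and the fold changes are therefore also given without it, whereas the values of the comparison lists are from all 6 libraries.

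Promoter sequences are shown for 4 of these genes, the 2 with the widest range between libraries (Upk3b and Lrrn4) and the neighbouring keratin pair (Krt8 and Krt18). The RefSeq promoter table of GRCm38.p6 matched 6 of the 10 genes named, and Wt1, Upk1b, Msln and Krt19 were not among them. Each run reads 5′ to 3′ on the strand of its gene and ends before the annotated transcripts. Upk3b is given at chr5:136038246-136038495 (+ strand), Lrrn4 at chr2:132880892-132881112 (- strand), Krt8 at chr15:102004483-102004592 (- strand) and Krt18 at chr15:102027966-102028179 (+ strand). Capitals mark the M-CAT motif, spelled CATTCC or GGAATG on the other strand, to which TEAD transcription factors are known to bind.
Upk3b: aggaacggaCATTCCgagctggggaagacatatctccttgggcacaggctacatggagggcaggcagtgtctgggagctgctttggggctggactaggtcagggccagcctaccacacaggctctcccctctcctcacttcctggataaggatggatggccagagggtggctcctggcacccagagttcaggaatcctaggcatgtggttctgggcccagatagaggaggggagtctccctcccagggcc
Lrrn4: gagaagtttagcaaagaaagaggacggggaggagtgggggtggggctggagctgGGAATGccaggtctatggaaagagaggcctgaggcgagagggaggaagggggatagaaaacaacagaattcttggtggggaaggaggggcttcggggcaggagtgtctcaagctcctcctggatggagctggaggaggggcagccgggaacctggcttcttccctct
Krt8: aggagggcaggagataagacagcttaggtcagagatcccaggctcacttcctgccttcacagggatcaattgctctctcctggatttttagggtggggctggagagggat
Krt18: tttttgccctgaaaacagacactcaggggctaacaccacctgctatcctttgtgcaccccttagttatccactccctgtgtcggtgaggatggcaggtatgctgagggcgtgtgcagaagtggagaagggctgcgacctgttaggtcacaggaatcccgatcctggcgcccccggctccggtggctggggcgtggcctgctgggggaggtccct
The M-CAT letters stood 241 to 236 bases before the end of the printed run in Upk3b and, on the other strand, 167 to 162 bases before it in Lrrn4. The search covered the 250 bases before each RefSeq start, of which the part outside annotated transcripts is printed (250 bases for Upk3b, 221 for Lrrn4, 110 for Krt8 and 214 for Krt18). Of all 32851 promoter windows of that length, 12.6% held these letters. They did not lie in the searched windows of Krt8, Krt18 and Tbx18. The letters of the TATA box (TATAAA, or TTTATA on the other strand, in 12.4% of all windows) and of the GC box (GGGCGG, or CCGCCC, in 32.7%) lay in none of these 5 windows. The motifs were chosen after the sequences were seen, and a match is a description of letters and not of a binding site.

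Upk3b and Upk1b encode membrane proteins known from the plaques of the urinary tract lining, where Upk1b, a tetraspanin, pairs with a member of the Upk3 family. Upk3b (chromosome 5, 136038496 to 136046487) had 30.4, 447 and 64.4 CPM among controls, and 45.6, 142 and 185 CPM among mutants. Control replicate 2 was thus 9.43 times the mean of the other controls and 2.41 times the next library, mutant replicate 3, and the groups overlapped. Upk1b (chromosome 16, 38773184 to 38800328) followed the same order of libraries, with 12.0, 110 and 25.8 CPM in the controls and 13.7, 31.1 and 45.3 CPM in the mutants. The partners that build plaques in the urinary tract were nearly absent, since Upk2 had at most 0.202 CPM and Upk3a at most 0.0941 CPM in any library. Upk1a was read at 0.410 to 1.04 CPM.

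Msln, which encodes the surface glycoprotein mesothelin, and Lrrn4, which encodes a membrane protein with leucine-rich repeats, are commonly used to mark mesothelial cells. Msln (chromosome 17, 25748613 to 25754378) had 45.2, 309 and 75.3 CPM among controls and 38.3, 120 and 187 CPM among mutants. Lrrn4 (chromosome 2, 132868305 to 132880891) had 10.1, 204 and 26.3 CPM among controls and 28.2, 47.3 and 60.3 CPM among mutants. Lrrn4 had the widest range of the 9 genes, with control replicate 2 at 20.2 times control replicate 1. In both genes control replicate 2 was the highest library and mutant replicate 3 the second. Mutant replicate 1 was the lowest library for Msln but lay above 2 of the 3 controls for Lrrn4, so that the ratio of Lrrn4 to Msln went from 0.223 in control replicate 1 to 0.736 in mutant replicate 1.

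Keratins 8, 18 and 19 form the filaments of simple epithelia and of mesothelium, in which the type II keratin 8 pairs with the type I keratins 18 and 19. Krt8 (101996698 to 102004482) and Krt18 (102028180 to 102032027) lie next to each other on chromosome 15, transcribed away from each other with 23697 bases between them, and Krt19 lies on chromosome 11 (100140810 to 100148665). Krt8 had 12.5, 118 and 33.1 CPM among controls and 9.49, 19.1 and 30.4 CPM among mutants. Krt18 had 11.0, 76.6 and 17.2 CPM among controls and 9.18, 20.6 and 25.6 CPM among mutants. For Krt19 the controls were at 18.9, 166 and 30.9 CPM and the mutants at 16.3, 38.8 and 55.4 CPM. All 3 keratins were highest in control replicate 2 and lowest in mutant replicate 1. The type I pair kept an even balance, with a ratio of Krt19 to Krt18 from 1.71 to 2.17 in the 6 libraries. Krt8 was the exception in its order, since its second highest library was control replicate 3. Per length of transcript, the sum of Krt18 and Krt19 was 2.80, 2.36 and 1.69 times Krt8 among controls and 3.14, 3.61 and 3.08 times Krt8 among mutants. This ratio was chosen after the values were seen and was not tested. Annotation shows a lincRNA gene on the opposite strand that overlaps Krt8 (Gm36026) and an opposite-strand gene of unsettled type that overlaps Tbx18 (D030062O11Rik), and no strand-specific counting is stated, so that their fragments are not told apart from those of the 2 genes. Krt8 also has an annotated processed pseudogene (Krt8-ps), so that its level is uncertain by any fragments shared with that copy.

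Wt1 and Tbx18 encode transcription factors that are active in the developing epicardium, a zinc finger protein and a T-box protein. Wt1 (chromosome 2, 105126529 to 105173616) was the lowest of the genes, with 2.27, 21.1 and 5.43 CPM among controls and 2.28, 5.66 and 9.28 CPM among mutants. Even there the counts were 118 to 1070 per library. Wt1 was high and low in the same libraries as Upk1b, and its ratio to Upk1b stayed between 0.166 and 0.211. Tbx18 (chromosome 9, 87702800 to 87731260), which is also known from mural cells of vessels, had 16.0, 33.9 and 14.6 CPM among controls and 13.2, 19.3 and 23.0 CPM among mutants. Its highest library was again control replicate 2, but the range was 2.57-fold, against 8.08-fold to 20.2-fold in the other 8 genes. Without control replicate 2 the range was 1.74-fold for Tbx18 and 2.78-fold (Krt18) to 6.10-fold (Upk3b) for the others, and 8 of the 9 genes, all but Krt8, were then highest in mutant replicate 3.

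**Figure D1:**
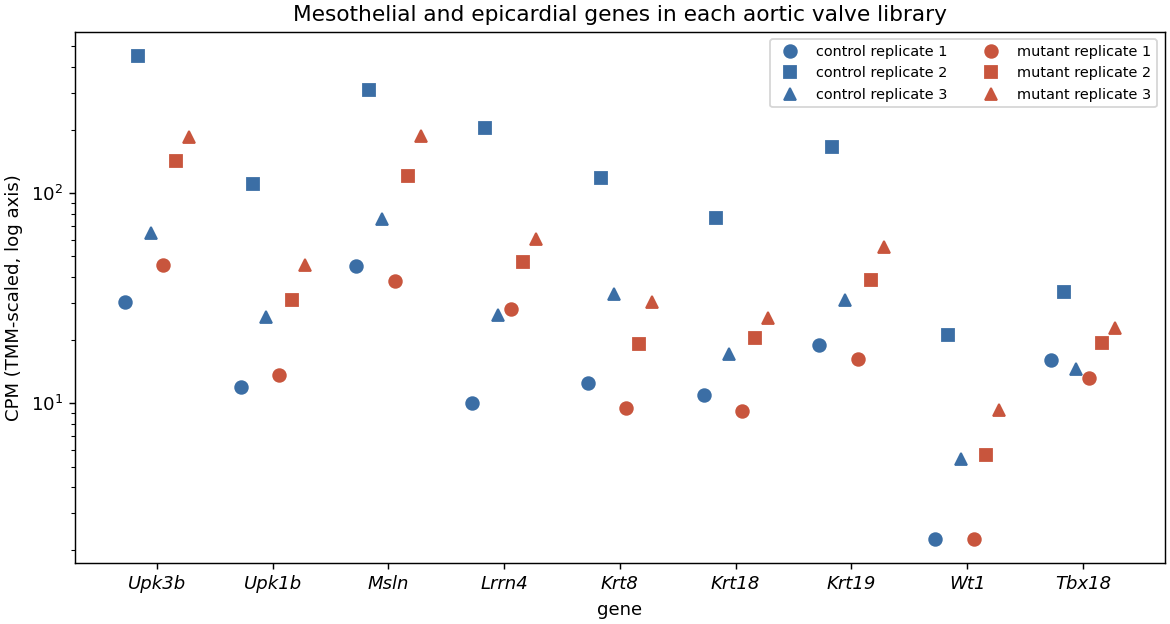
Level of each of the 9 genes in CPM (log axis) in the 3 control (blue) and 3 mutant (red) libraries, with 1 point per library. Control replicate 2 is the highest point for every gene, up to 447 CPM for Upk3b, and the narrowest column is that of Tbx18, from 13.2 to 33.9 CPM.

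Summed over the 9 genes, the 3 controls gave 158, 1486 and 293 CPM and the 3 mutants 176, 445 and 622 CPM, a 9.38-fold range that was 3.92-fold without control replicate 2. They made 0.0152% of all fragments in control replicate 1 and 0.155% in control replicate 2. Per kilobase of transcript, averaged over the 6 libraries, Upk3b (43.2 CPM per kilobase) and Msln (42.2) led, followed by Krt19 (29.3), Upk1b (19.0), Krt8 (19.0), Krt18 (18.6), Lrrn4 (16.9), Tbx18 (4.24) and Wt1 (1.24). Without control replicate 2 Msln (30.4 CPM per kilobase) came before Upk3b (26.5), followed by Krt19 (17.3), Upk1b (12.2), Krt18 (11.6), Krt8 (10.7), Lrrn4 (9.27), Tbx18 (3.65) and Wt1 (0.805). Upk3b and Msln, and the 4 genes from Upk1b to Lrrn4, differed in this average by far less than their own spread between libraries. The order of Upk3b and Msln also changed between libraries, with 8.62 against 14.8 CPM per kilobase in control replicate 1 and 127 against 101 in control replicate 2. In control replicate 1 Lrrn4 (2.71 CPM per kilobase) lay below Tbx18 (3.40).

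Each gene was then set against the common profile, the mean over the 9 genes of log2 CPM after centring each gene on its own mean. The controls took the values -1.18, 1.89 and -0.27 in this profile, and the mutants -1.08, 0.08 and 0.57. Upk1b stayed closest to it, with a root mean square deviation of 0.062 on the log2 scale, followed by Krt19 (0.130) and Wt1 (0.149). The deviation was larger in Upk3b (0.361), Krt8 (0.411), Lrrn4 (0.470) and Tbx18 (0.632). Without control replicate 2 Upk1b was again the closest (0.067), and Upk3b (0.375), Krt8 (0.420), Tbx18 (0.464) and Lrrn4 (0.467) again the farthest. Control replicate 2 was the highest library in 9 of the 9 genes, and it was the highest in 24.4% of all genes tested. In 8 of the 9, all but Tbx18, it was at least 5 times the mean of the other controls, which held for 0.69% of all genes tested.

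The genes outside the list whose profile was most like that of Upk3b were found among 13692 genes with a mean of at least 1 CPM, by the root mean square difference of their centred log2 CPM over the 6 libraries. The closest were Slc23a3 (0.142), Vtcn1 (0.172), Bnc1 (0.173), Cldn15 (0.182), Chst4 (0.206), 1600029D21Rik (0.223), Nkain4 (0.250) and Cyp2s1 (0.275), where the median gene differed by 1.32. Of these 8, Bnc1, which encodes a zinc finger protein, the tight junction gene Cldn15 and Nkain4 also stood in a list of 24 other mesothelial and epicardial genes written from general knowledge. Bnc1 had 2.50, 41.2 and 4.34 CPM among controls and 3.12, 12.9 and 14.5 CPM among mutants, the same order of libraries as in Upk3b. Of the listed genes, Lrrn4 came nearest to Upk3b (0.332, rank 12) and Tbx18 was farthest (0.910, rank 206). Without control replicate 2, 6 of the 8 closest genes outside the list were shared (all but Chst4 and Cyp2s1), and the nearest listed gene was Msln (0.310, rank 14), with Lrrn4 at rank 19 and Tbx18 at rank 532.

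**Figure D2:**
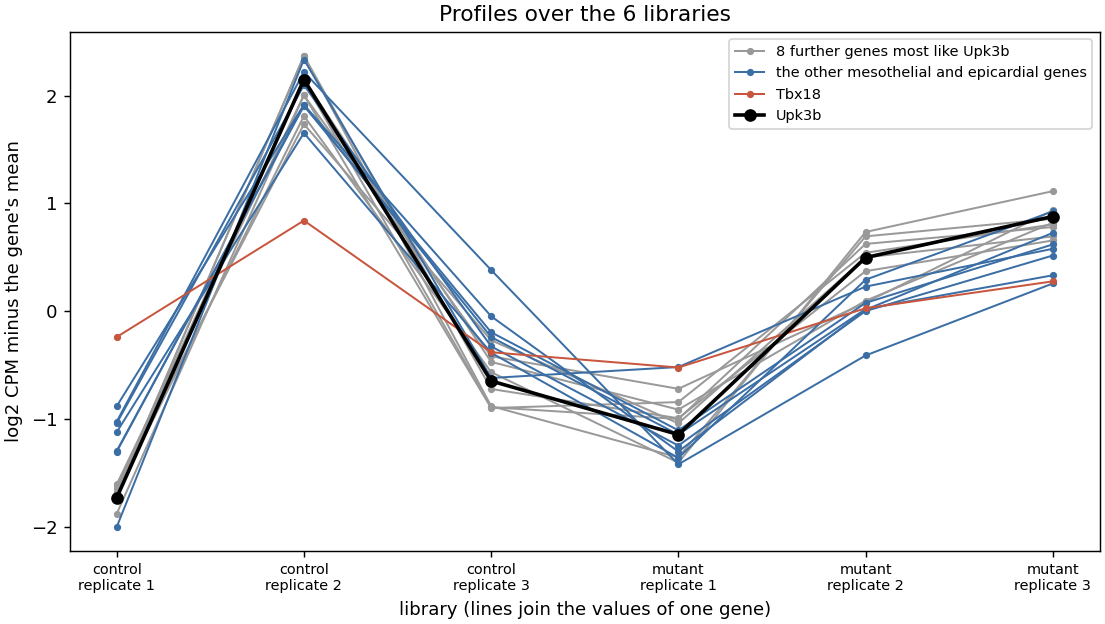
Centred log2 CPM in the 6 libraries for Upk3b (black), the other mesothelial and epicardial genes (blue), Tbx18 (red) and the 8 further genes most like Upk3b (grey), with lines joining the values of one gene. All lines peak in control replicate 2, and the line of Tbx18 is the flattest, with a range of 1.36 on the log2 scale against 3.88 for Upk3b.

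The spread between libraries of one group was measured as the SD of log2 CPM around the group means. Its median was 1.31 over the 9 genes and 0.24 over all genes tested. Lrrn4 (1.61) and Upk3b (1.61) spread most, at the 98.8th and 98.7th percentile of all genes. Wt1 (1.35), Krt19 (1.33), Msln (1.31), Upk1b (1.31), Krt8 (1.29) and Krt18 (1.17) lay between the 96.3rd and 97.6th percentile, and Tbx18 (0.55) at the 81.3rd. Thus 8 of 9 lay in the upper 5% of genes. Without control replicate 2 the median of the 9 genes was 0.85 (0.21 over all genes), still at the 93.3rd percentile. Within the 3 mutant libraries alone, a comparison added after the data were seen, it was 0.88 (92.6th percentile), and the mutants differed among themselves by 1.74-fold in Tbx18 and by 2.14-fold in Lrrn4 to 4.88-fold in Msln. The spread was therefore wide also among libraries other than control replicate 2.

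**Figure D3:**
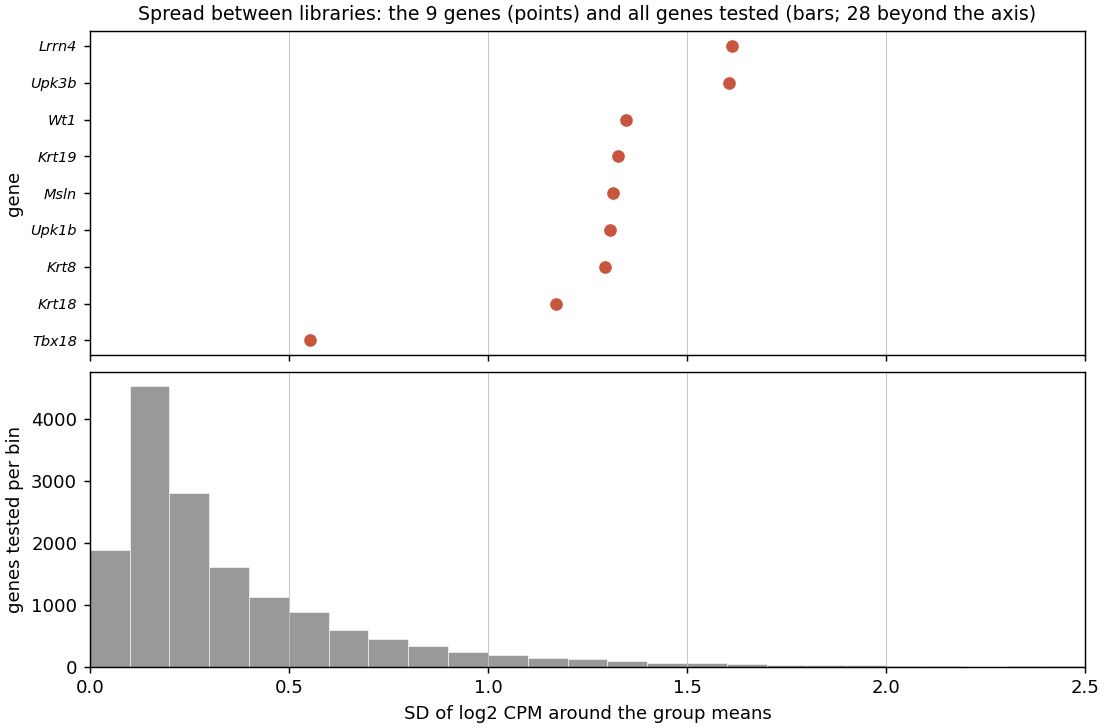
Upper panel, SD of log2 CPM around the group means for each of the 9 genes. Lower panel, the number of all genes tested in each bin of 0.1 on the same axis. Tbx18 (0.55) sits in the shoulder of the distribution and the other 8 genes, from 1.17 to 1.61, in its tail.

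Between mutants and controls, none of the 9 genes passed the adjusted threshold of 0.05 in edgeR or in DESeq2, and their unadjusted p stayed above 0.05 in both tools as well. In edgeR 0 of the 15354 genes tested passed the adjusted threshold (0%) and 3.45% had an unadjusted p under 0.05, and in DESeq2 0.169% passed the adjusted threshold. The control and mutant libraries overlapped in all 9 genes, where 8.87% of all genes tested did not overlap. The fitted log2 fold changes of the 9 genes, mutants against controls, were all below 0, which held for 47.8% of all genes tested, with a median of -0.75 against 0.01 over all genes. The most negative was that of Krt8 at -1.48 (standard error, SE, 0.80, edgeR adjusted p = 0.999), from 54.6 ± 56.1 CPM (SD, n = 3) in the controls to 19.6 ± 10.4 CPM (SD, n = 3) in the mutants. For Upk3b it was -0.54 (SE 0.98, edgeR adjusted p = 0.999), from 181 ± 231 to 125 ± 71.6 CPM (SD, n = 3 each), and for Msln -0.32 (SE 0.80). The other fold changes ran from -0.97 for Krt19 (SE 0.84) to -0.22 for Tbx18 (SE 0.36). In Upk3b, Upk1b, Wt1, Krt8, Krt18, Krt19, Msln and Lrrn4 the SD of the controls was larger than their mean.

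The negative sign depended on control replicate 2 and on the fit. Without that library, 8 of the 9 log2 fold changes were above 0 and the median was 0.57. Upk3b was then at 1.40 (SE 0.61), Lrrn4 at 1.32 (SE 0.48), Msln at 0.94 (SE 0.61), Upk1b at 0.67 (SE 0.54), Wt1 at 0.57 (SE 0.64), Krt19 at 0.57 (SE 0.50), Krt18 at 0.39 (SE 0.44) and Tbx18 at 0.27 (SE 0.25). Krt8 alone stayed below 0, at -0.21 (SE 0.56). Without any other single library all 9 stayed below 0, except Msln without mutant replicate 1 (0.10). With all 6 libraries, 2 of the 9 were above 0 in limma-voom (median -0.35) and with the replicate number as a block (median -0.25), and 7 of the 9 in limma-voom with sample quality weights (median 0.16). Lrrn4 had an unadjusted p of 0.031 in that edgeR fit, with every mutant above the 2 remaining controls, and an adjusted p of 1. In that fit 2.79% of all genes had an unadjusted p under 0.05, and in 8.48% every mutant lay above both controls. Without control replicate 1, the log2 fold change of Krt8 was -1.95 (SE 0.63), with an unadjusted p of 0.0209 and an adjusted p of 0.947 in edgeR, where 4.1% of all genes had an unadjusted p under 0.05.

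**Figure D4:**
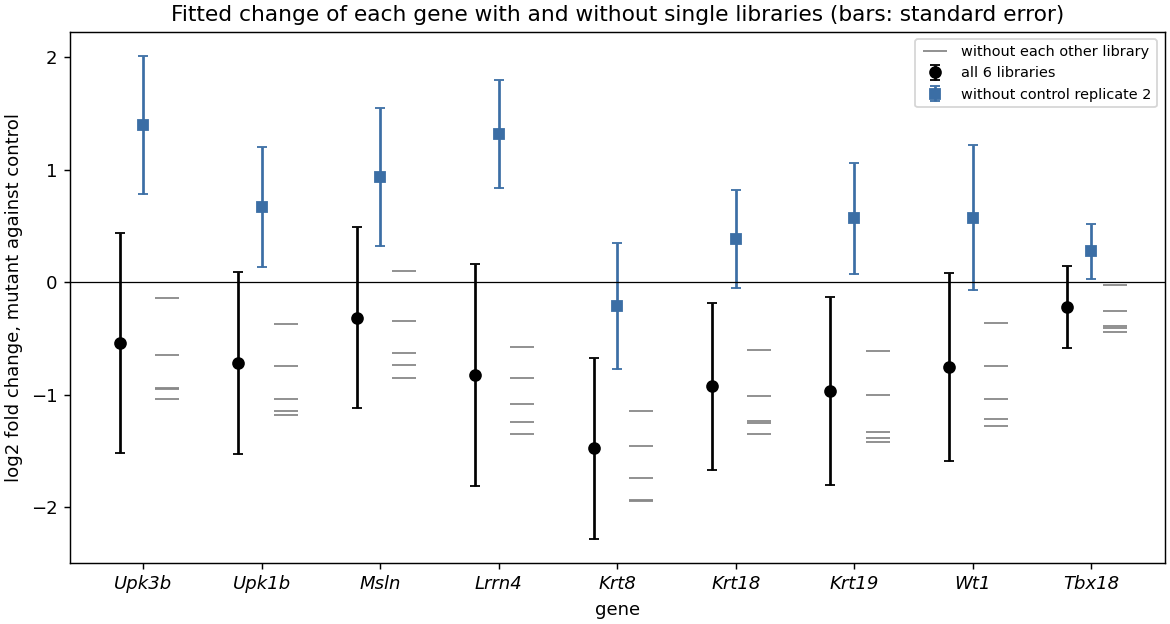
Log2 fold change of each gene, mutants against controls, in edgeR with all 6 libraries (black, bars show the standard error), without control replicate 2 (blue, same bars) and without each other library (grey ticks). The black points lie below 0 for all 9 genes, from -1.48 to -0.22, and the blue points lie above 0 for 8 of them.

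The 24 other mesothelial and epicardial genes were tested as well, and 0 of them had an unadjusted or adjusted p under 0.05 in edgeR or an adjusted p under 0.05 in DESeq2, against 3.45% of all genes tested at an unadjusted p under 0.05 in edgeR. In 17 of the 24 control replicate 2 was the highest library (24.4% of all genes), and in 8 it was at least 5 times the mean of the other controls (0.69% of all genes). Those 8 were Bnc1, Nkain4, Rspo1, Cldn15, Aldh1a2, Krt7, Lrp2 and Crb2. Aldh1a2, which encodes an enzyme of retinoic acid synthesis in the epicardium, had 16.4, 79.4 and 12.8 CPM among controls and 22.4, 19.6 and 31.7 CPM among mutants. The receptor gene Lrp2 went from 0.168 CPM in control replicate 1 to 7.29 CPM in control replicate 2. The median spread of the 24 genes was 0.93 on the log2 scale. Tcf21, a transcription factor gene of epicardium-derived fibroblasts, had 60.8, 60.3 and 52.1 CPM among controls and 60.4, 45.2 and 77.6 CPM among mutants. Gata6 stayed between 138 and 153 CPM, with a spread at the 3.60th percentile of all genes. Gata4, the member with the smallest unadjusted p (0.0822), differed by 0.37 on the log2 scale (SE 0.18, edgeR adjusted p = 0.999), Dmkn by -1.11 (SE 0.80) and Podxl, at the highest level of the list, by 0.25 (SE 0.20).

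Keratins and membrane genes of other epithelia were set beside them, since Krt8, Krt18 and Krt19 are not particular to mesothelium. Epcam was read at 0.0652 to 0.969 CPM and Cdh1, which encodes E-cadherin, at 1.51 to 3.16 CPM. The thymic epithelial gene Foxn1 and the splicing regulator gene Esrp1 had 0 counts in all 6 libraries, which allows up to 0.0538 to 0.0931 CPM per library (3 counts of the total, counting error only). The lung genes Sftpb, at most 0.0193 CPM, and Sftpc, at most 0.174 CPM, were at the edge of detection, and the airway gene Scgb1a1 reached 0.733 CPM in mutant replicate 1 and 0.242 CPM in control replicate 1 and was lower in the other libraries. The summed level of the 14 genes of airway, thymic and other epithelium was 12.0 to 21.7 CPM in the controls and 10.2 to 13.6 CPM in the mutants, with Cldn3 at the highest level (3.34 to 15.1 CPM). The 10 other uroplakin and keratin genes summed to 19.4 to 41.4 CPM in the controls and 22.8 to 25.2 CPM in the mutants. Both sums were highest in control replicate 2. Krt14, which encodes a type I keratin of basal cells, had 5.20, 19.6 and 11.7 CPM among controls and 1.12, 4.12 and 4.45 CPM among mutants. Every mutant lay below every control, which held for 4.83% of all genes tested, and the difference on the log2 scale was -1.92 (SE 0.64, edgeR unadjusted p = 0.0195 and adjusted p = 0.999). Cldn7 also lay below the controls in all mutants, at 0.157 to 0.227 CPM against 0.410 to 0.543 CPM, from 5 to 25 counts per library.

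Markers of other tissues around the valve also differed between libraries, and their part in the levels of the mesothelial genes was not tested. The 12 cardiac muscle genes ran opposite to the mesothelial genes in control replicate 2, which was their lowest library in 10 of 12. Summed, they gave 38636, 13643 and 42504 CPM among controls and 45884, 22264 and 32559 CPM among mutants. Myh6, the atrial and ventricular myosin heavy chain of the adult mouse, was at 2889 CPM in control replicate 2 and 11377 CPM in mutant replicate 1. The 8 smooth muscle genes were highest in control replicate 2 in 7 of 8, with a summed level of 6929 to 13970 CPM in the controls and 3860 to 7045 CPM in the mutants. Of these, Myh11 had 974, 2364 and 973 CPM among controls and 325, 827 and 829 CPM among mutants, below every control (log2 fold change -1.12, SE 0.49, edgeR adjusted p = 0.999). This separation held for 3 of the 8 genes, Myh11, Tagln and Smtn, and for 4.83% of all genes tested, and Smtn had the smallest unadjusted p of the list (0.0341, log2 fold change -0.87, SE 0.33 in edgeR). Adipocyte genes were also highest in control replicate 2, in 8 of 10, and their sum was second highest in mutant replicate 3, as for the mesothelial genes. Cfd, which encodes adipsin, had 242, 895 and 183 CPM among controls and 249, 151 and 662 CPM among mutants.

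The summed level of 6 blood genes was 5693 to 20402 CPM in the controls and 2795 to 19803 CPM in the mutants, and it was highest in control replicate 1 and lowest in mutant replicate 1. The sum of the mesothelial genes was lowest in control replicate 1, whereas 5 of the 9 single genes were lowest in mutant replicate 1 and 4 in control replicate 1. The 8 pericyte genes summed to 451 to 583 CPM in the controls and 344 to 476 CPM in the mutants, with Vtn (log2 fold change -0.98, SE 0.30) and Pdgfrb (-0.36, SE 0.15) below all controls in all 3 mutants, each with an edgeR adjusted p of 0.999, where such a separation held for 4.83% of all genes tested. The 8 Schwann cell genes summed to 63.0 to 86.5 CPM in the controls and 56.6 to 74.4 CPM in the mutants. The pericyte and Schwann cell sums were also highest in control replicate 2, and the Schwann cell sum was second highest in mutant replicate 3. In each of the 10 lists the summed levels of controls and mutants overlapped.

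**Figure D5:**
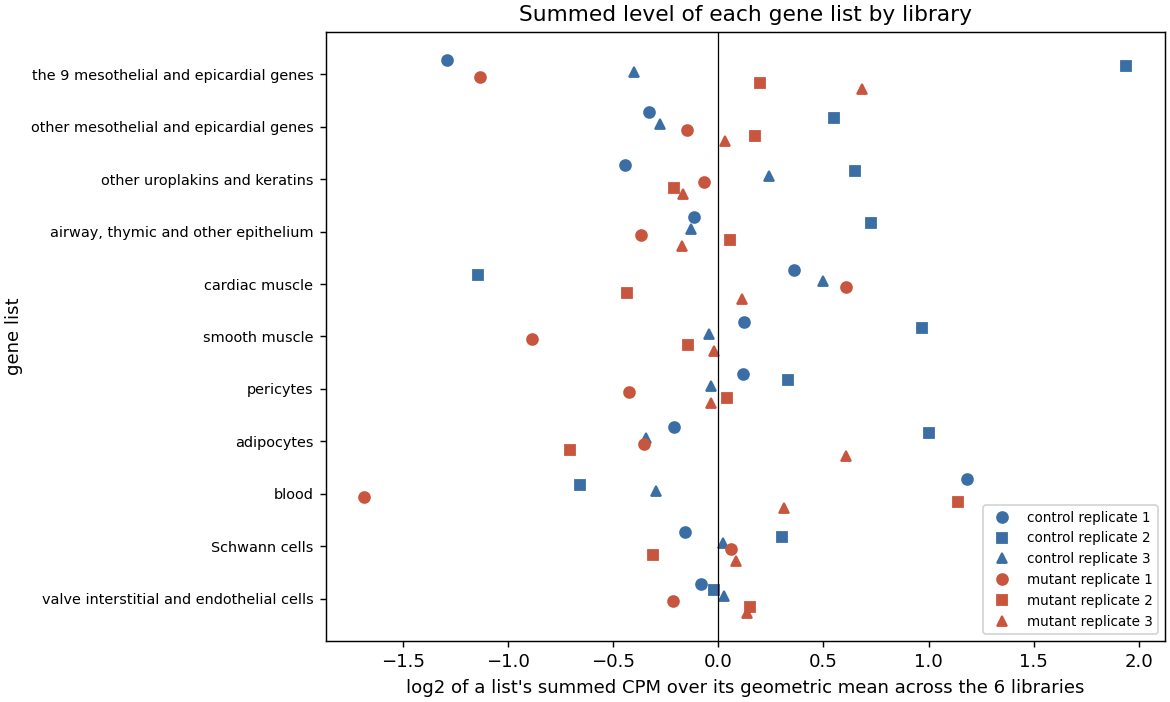
Summed CPM of each gene list in each library, as log2 of its ratio to the geometric mean over the 6 libraries (blue controls, red mutants). The 9 mesothelial and epicardial genes span 9.38-fold, with control replicate 2 at the right end, where cardiac muscle is at its lowest, and the valve interstitial and endothelial genes span 1.29-fold.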

How the data were processed

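Aortic valve RNA-Seq libraries, 3 control and 3 mutant, were compared. The submitters' processing notes name TopHat2 2.0.13, Bowtie2 2.2.1 and Cuffdiff 2.1.1 with mm10 (GRCm38), and the paper's methods give a different Bowtie2 version. The authors deposited estimated counts (fragments assigned to each gene by Cuffdiff, not scaled for library size, 1.66% to 1.87% of them not whole), which were rounded here. Columns were matched to samples by description. Library totals were 55728852, 48524674 and 46180667 in the controls and 53129462, 38299836 and 32218345 in the mutants.

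In R 4.3.3, the 15354 genes that reached 10 counts in 3 or more libraries were tested with edgeR 4.0.16 (TMM, quasi-likelihood F test, two-sided, no covariates) and Benjamini-Hochberg adjustment over all of them at 0.05. Standard errors were obtained as the fold change divided by the square root of F. Log2 CPM used a prior count of 2. Positions and exon lengths came from GENCODE M21 and promoters from RefSeq. The steps were tested on simulated data. Alternatives were DESeq2 1.42.0, limma-voom (limma 3.58.1) with and without sample weights, other scalings and filters, the replicate number as a block, and leaving out each library. The ranges, the levels per kilobase, the common profile and the likeness to Upk3b without control replicate 2 were added after the data were seen.

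The genes described, the 10 comparison lists and the tests were chosen with earlier results of these data known, and no list was tested as a set. The rule named the genes of the list, the 8 further genes most like Upk3b and, in each comparison list, the 2 genes with the smallest unadjusted p, the one at the highest level and any with 0 counts. Not every gene selected is reported, and others are named as values after being seen. Hbb-bs was read under its synonym.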

Additional observations from a re-analysis of the deposited data

How the results depend on the processing

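In edgeR 0 genes had an adjusted p under 0.05 (529 at an unadjusted p under 0.05), in DESeq2 26 (21 higher, 5 lower in the mutants), and in every other alternative 0, from limma-voom to the fits without one library. Of the 9 mesothelial and epicardial genes 0 passed in any of these. When each library was left out in turn, the median log2 fold change of the 9 genes lay between -1.22, for control replicate 1, and 0.57, for control replicate 2, their median spread between 0.85, for control replicate 2, and 1.50, for mutant replicate 2, the number of them whose groups did not overlap between 0 and 1, and the number of the 10 comparison lists whose groups did not overlap, 0 with all libraries, between 1 and 2, in fits with fewer libraries to overlap. The gene without overlap was Krt8, lower in the mutants, without control replicate 1, and Lrrn4, higher in the mutants, without control replicate 2. Without control replicate 2, every mutant lay above both controls in 8.48% of all genes. No such share was obtained for the fit without control replicate 1. Within the 3 mutants alone the median spread was 0.88.

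By gene, leaving out one library gave log2 fold changes from -1.04 to 1.40 for Upk3b, -1.35 to 1.32 for Lrrn4, -0.85 to 0.94 for Msln (0.10 without mutant replicate 1), -1.18 to 0.67 for Upk1b, -1.28 to 0.57 for Wt1, -1.42 to 0.57 for Krt19, -1.35 to 0.39 for Krt18 and -0.44 to 0.27 for Tbx18, each highest without control replicate 2. Krt8 stayed below 0 in all of them (-1.95 to -0.21). In limma-voom the sign turned for Upk3b (0.18) and Lrrn4 (0.17). With sample quality weights it turned for Upk3b (0.98), Lrrn4 (0.94), Msln (0.58), Upk1b (0.29), Wt1 (0.16), Krt19 (0.14) and Tbx18 (0.12). The cause was not tested. Upper-quartile scaling, no scaling factors, no filter (18583 genes), a minimum mean of 100 counts (12642 genes) and DESeq2 kept all 9 signs, and a prior count of 0.5 left the median spread at 1.32.

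Same-numbered control and mutant libraries correlated in their deviations from the group means by 0.29, 0.08 and 0.03. Differently numbered libraries correlated by -0.27 to 0.20. With 3 libraries per group these values cannot decide whether same-numbered samples were paired, and the labels do not state it. With the replicate number as a block, 0 genes passed (814 at an unadjusted p under 0.05), the log2 fold changes of Upk3b (0.19) and Lrrn4 (0.28) turned above 0, and the median of the 9 genes was -0.25. The block and the sample weights give no value of their own for the spread, and the block and limma-voom none for the overlap of groups.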
